A study of Mus musculus with 8 samples.

Results

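The Hippo pathway genes described here are the coactivators Yap1 and Wwtr1, the TEAD factors Tead1, Tead2, Tead3 and Tead4, the kinases Lats1 and Lats2, and the regulators Amotl2 and Vgll4. They were taken by symbol from the deposited count table, which lists 32531 gene symbols, and all 10 were found in it. Islet RNA of 4 control mice (RIP-Cre+, Rosa26-rtTA+, tetO_NICD-) was compared with islet RNA of 4 β-tetO-NICD mice, here NICD mice (RIP-Cre+, Rosa26-rtTA+, tetO_NICD+), to ask whether Notch activity in β cells went with a different level of these genes. Cre, rtTA, the mixed C57BL/6J, 129X1/SvJ and BALB/c background and 8 weeks of doxycycline (Dox) in the drinking water were common to both groups, and the tetO_NICD transgene, which encodes the active intracellular domain of Notch1, was carried by the NICD mice. RIP-Cre uses the rat insulin promoter and so targets β cells, whereas the RNA came from whole islets with all of their cell types. The study began Dox at weaning or in older mice, and which start and what age apply to these mice is not given in the sources used here. Libraries are named by group and by the number in the count table, which is 1 to 4 for controls and 1, 2, 4 and 5 for NICD.

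The Hippo pathway is a kinase cascade that restrains the coactivators YAP, the product of Yap1, and TAZ, the product of Wwtr1. The kinases encoded by Stk3 and Stk4 activate LATS kinases, which phosphorylate YAP and TAZ and so keep them out of the nucleus or mark them for breakdown, whereas unphosphorylated YAP and TAZ enter the nucleus and act through TEAD factors, which bind DNA. In the pancreas, YAP is known to be abundant in duct and mesenchymal cells and to be shut off as endocrine cells form. Phosphorylation and localization of YAP are not measured by RNA.

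Because TEAD factors and RBPJ, the DNA-binding partner of the Notch intracellular domain, each recognize a short motif, the promoters of the members were searched for these letters. RefSeq windows on GRCm38.p6 were found for 8 of the 10 members. TEAD letters (GGAATG, either strand) were present in the 250 bases before an annotated start of 5 of the 8, which were Yap1, Wwtr1, Tead3, Amotl2 and Vgll4, and in 14.4% of all 27025 genes with such a window. The core RBPJ letters (TGGGAA, either strand) were present in 2 of the 8, Tead2 and Tead3, against 24.1% of all genes, and the longer form GTGGGAA, which contains the core, was present in Tead3, against 6.18%. These are matches of letters in a sequence and not measured binding. The matches below are shown because they lie in the coactivators, a direct regulator of YAP, the TEAD competitor and TEAD genes. Further matches in Tead3, to the TEAD letters and to the core RBPJ letters, are not printed. Capitals mark the letters searched, which read CATTCC or TTCCCA on the opposite strand.
Yap1, TEAD letters, chr9:8004720-8004749, minus strand: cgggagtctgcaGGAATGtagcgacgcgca
Wwtr1, TEAD letters, chr3:57576029-57576058, minus strand: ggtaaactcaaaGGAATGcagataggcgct
Amotl2, TEAD letters, chr9:102717727-102717756, plus strand: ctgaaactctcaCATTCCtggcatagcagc
Vgll4, TEAD letters, chr6:114969268-114969297, minus strand: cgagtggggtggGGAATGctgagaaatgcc
Tead3, RBPJ letters, chr17:28350994-28351023, minus strand: gtgtaggggaggTGGGAActctgagacgac
Tead2, RBPJ letters, chr7:45215745-45215774, plus strand: tccctcccacttTTCCCAaacaaagctccc

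Libraries held between 21701223 and 26413146 counts, and values are given as CPM, which scales counts to the size of the library. A floor of 3 counts, for counting error only, was worth 0.151 CPM or less on this scale, and every member lay above it. The labels were checked on Notch1, whose counts do not separate the transgene from the endogenous gene and which went from 56.9 ± 10.7 CPM in controls to 1030 ± 331 CPM in NICD islets (SD, n = 4; log2 fold change 4.18, edgeR adjusted p = 0.000102), and the Notch target Hes1 rose by 2.61 on the log2 scale (edgeR adjusted p = 0.00014). The libraries also differed in other ways, of which the first below, a trend with transcript length, was partly aligned with group. Its reference is the mean over both groups, so this measure can hold effects of genotype. A rank correlation over all tested genes with a known length, between transcript length and how far a library lay from the mean of the 8 (Spearman's rho), was 0.418, 0.467 and 0.497 in controls 1, 2 and 4 and 0.446 in NICD 1, but −0.174 in control 3 and −0.521, −0.360 and −0.515 in NICD 2, 4 and 5. The methods state that islets of males were used for gene expression, yet the Y-linked gene Eif2s3y was counted 1300 to 1527 times in controls 2 and 4 and in NICD 5 and had at most 1 count in the other 5 libraries. The β cell markers Ins1 and Ins2 were abundant in every library, and acinar marker RNA was present in all of them. The summed CPM of 8 β cell markers was 154800 to 195800 in controls and 71610 to 171600 in NICD islets. Of these markers 2 were called lower (edgeR adjusted p under 0.05). For 6 α cell markers it was 12080 to 43190 and 55550 to 70540, with 3 called higher. For 4 δ cell markers it was 2439 to 6588 and 5087 to 14150, with 1 called higher. Of all tested genes 4.19% were called higher and 2.57% lower. The part of these differences in the members' levels was not tested.

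No Hippo or TEAD member passed the test for a difference between the groups. All 10 passed the filter of at least 10 counts in at least 4 libraries, and edgeR's quasi-likelihood test called 0 of the 10 at an adjusted p under 0.05, with 0 at an unadjusted p under 0.05 and 0 called by DESeq2 or limma-voom. Of all 15082 genes tested, 6.76% were called, 4.19% higher and 2.57% lower in NICD islets. The CPM ranges of the groups overlapped for all 10 members, whereas they did not overlap in 16.1% of all genes, including 7.92% with NICD below control. The log2 fold change was below 0 for 9 members and above 0 for 1, with a median of −0.26 against 0.00071 over all tested genes. The lowest edgeR adjusted p of any member was 0.191, for Lats1.

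**Figure D1:**
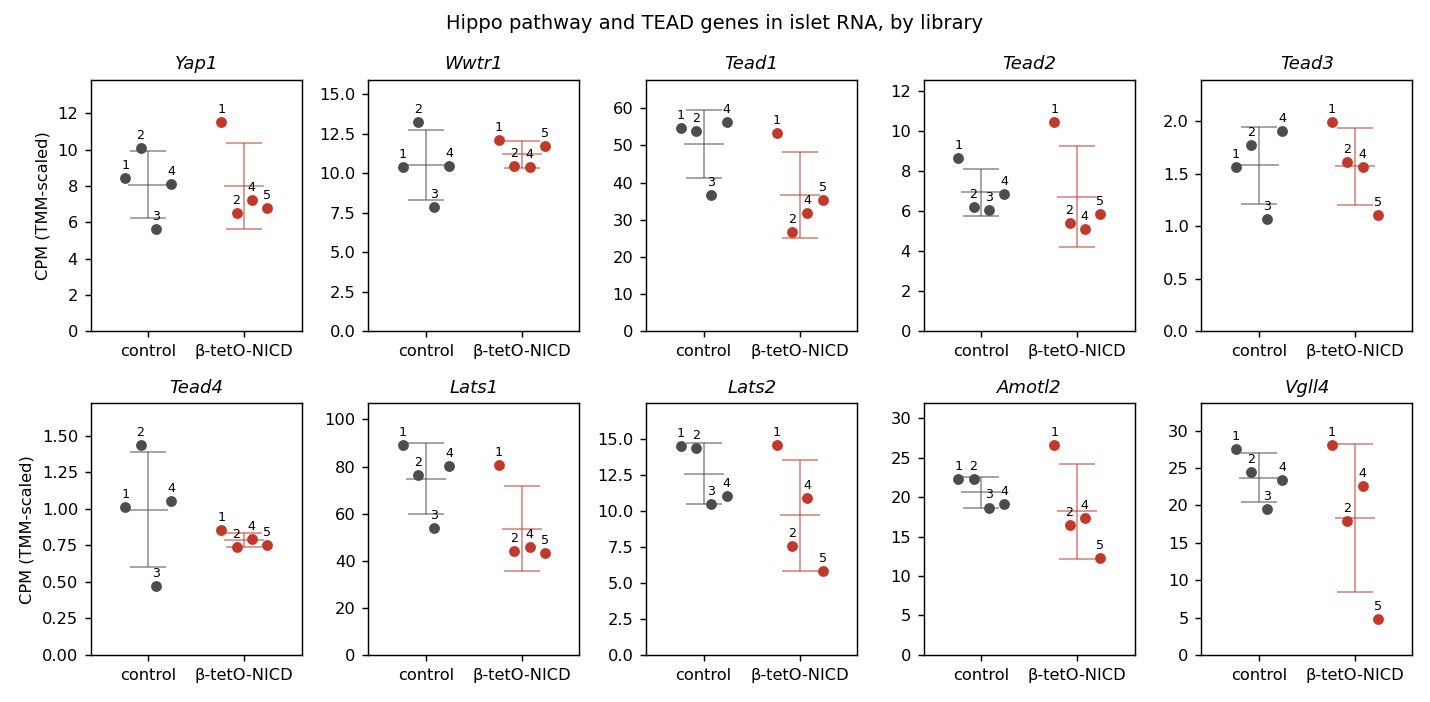
CPM on TMM-scaled library sizes (linear axis from 0) of each member in the 4 control (grey) and 4 NICD (red) libraries; numbers are library numbers, and the bars give the mean and SD of the group. The groups overlap in every panel, NICD 1 lies among the controls for Tead1 and Lats1, and NICD 5 is far below the others for Vgll4.

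Mean levels of the coactivators lay close together in the 2 groups, at 8.07 ± 1.85 and 8.02 ± 2.37 CPM for Yap1 and 10.5 ± 2.20 and 11.2 ± 0.876 CPM for Wwtr1 (SD, n = 4). Yap1 (chromosome 9, 7931999 to 8004596 on GRCm38) had 8.44, 10.1, 5.62 and 8.12 CPM in controls 1 to 4 and 11.6, 6.51, 7.24 and 6.80 CPM in NICD 1, 2, 4 and 5. The highest library was NICD 1 and the lowest was control 3, and the other 3 NICD libraries lay within the control range. Its log2 fold change was −0.0082 (SE 0.25, 95% interval −0.57 to 0.55, edgeR adjusted p = 0.986). Wwtr1, which encodes TAZ (chromosome 3, 57455649 to 57575910), had 10.4, 13.3, 7.87 and 10.5 CPM in controls and 12.1, 10.5, 10.4 and 11.7 CPM in NICD islets. All 4 NICD values fell inside the control range. Its log2 fold change was 0.09 (SE 0.18, 95% interval −0.32 to 0.50, edgeR adjusted p = 0.752), the only positive value among the members.

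The TEAD factors bind DNA and recruit YAP or TAZ. Tead1 (chromosome 7, 112679318 to 112906807) had 54.6, 53.8, 36.6 and 56.4 CPM in controls and 53.3, 26.7, 31.7 and 35.2 CPM in NICD islets. NICD 1 stood with controls 1, 2 and 4, and control 3 stood just above the other 3 NICD libraries. The means were 50.4 ± 9.24 and 36.7 ± 11.6 CPM (SD, n = 4), with a log2 fold change of −0.46 (SE 0.23, 95% interval −0.97 to 0.059, edgeR adjusted p = 0.198).

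Tead2 (chromosome 7, 45215753 to 45233644), whose promoter window holds the RBPJ letters, had 8.62, 6.21, 6.05 and 6.82 CPM in controls and 10.5, 5.42, 5.11 and 5.84 CPM in NICD islets. NICD 1 was the highest of all libraries and the other 3 NICD libraries were the lowest, so the log2 fold change of −0.05 (SE 0.26, edgeR adjusted p = 0.912) averaged values on both sides of the controls. Tead3 (chromosome 17, 28331671 to 28350817) had 1.57, 1.77, 1.07 and 1.91 CPM in controls and 1.996, 1.62, 1.56 and 1.11 CPM in NICD islets. The 2 groups spanned nearly the same range, and its log2 fold change was −0.0069 (SE 0.30, edgeR adjusted p = 0.990). Tead4 (chromosome 6, 128224288 to 128300823) had the fewest counts of the members, with 1.015, 1.44, 0.475 and 1.06 CPM in controls and 0.855, 0.742, 0.797 and 0.756 CPM in NICD islets. The NICD libraries lay close together inside the control range, and the log2 fold change was −0.33 (SE 0.36, 95% interval −1.13 to 0.47, edgeR adjusted p = 0.527).

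Lats1, 1 of the LATS kinases that phosphorylate YAP and TAZ, had the most negative log2 fold change of the members. Lats1 (chromosome 10, 7681214 to 7716460) had 89.0, 76.6, 53.8 and 80.1 CPM in controls and 80.7, 44.3, 45.9 and 43.5 CPM in NICD islets. As for Tead1, NICD 1 stood with controls 1, 2 and 4, and control 3 lay between these and the other 3 NICD libraries. The means were 74.9 ± 15.0 and 53.6 ± 18.1 CPM (SD, n = 4), with a log2 fold change of −0.48 (SE 0.24, 95% interval −1.02 to 0.051, edgeR adjusted p = 0.191). Lats2 (chromosome 14, 57689662 to 57758388) had 14.5, 14.4, 10.5 and 11 CPM in controls and 14.5, 7.55, 10.9 and 5.79 CPM in NICD islets. NICD 2 and 5 were below every control, whereas NICD 1 was level with the highest controls and NICD 4 lay within their range, and the log2 fold change was −0.38 (SE 0.28, edgeR adjusted p = 0.358).

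Amotl2 encodes an angiomotin family protein that binds YAP and holds it at cell junctions. It had 22.3, 22.3, 18.7 and 19.2 CPM in controls and 26.6, 16.5, 17.4 and 12.3 CPM in NICD islets (chromosome 9, 102716672 to 102733418). The SD of log2 CPM was 0.14 in controls and 0.46 in NICD islets, with NICD 1 above and the other 3 below every control. Its log2 fold change was −0.18 (SE 0.22, edgeR adjusted p = 0.581).

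Vgll4, which competes with YAP for binding to TEAD factors, was set apart by 1 library. It had 27.5, 24.5, 19.6 and 23.3 CPM in controls and 28.0, 17.9, 22.6 and 4.84 CPM in NICD islets (chromosome 6, 114860628 to 114969994). The value in NICD 5 rested on 96 counts and was 0.270 of the lowest other library. Its SD of log2 CPM within NICD islets, 1.13, exceeded that of 96.2% of all tested genes. In NICD 5, 230 genes (1.52% of those tested) were as far below their lowest other library as Vgll4, and between 9 and 28 genes were in each of the other 7 libraries. The log2 fold change of Vgll4 was −0.37 (SE 0.41, 95% interval −1.29 to 0.55, edgeR adjusted p = 0.542), and it was −0.05 without NICD 5 (edgeR adjusted p = 0.878).

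Without NICD 1, Tead1 and Lats1 were called. The log2 fold change of Tead1 was then −0.69 (edgeR adjusted p = 0.0213) and that of Lats1 −0.75 (edgeR adjusted p = 0.0138), and the number of genes called among all tested rose from 1020 to 5065. In the other 7 fits that each left out 1 library, 0 members were called. Tead1 and Lats1 have the longest transcripts of the members, 9964 and 7209 bases, longer than those of 97.5% and 91.6% of tested genes. Both were higher in the 4 libraries with a rho above 0 than in the 4 with a rho below 0. With an offset for transcript length fitted in each library, the log2 fold change of Tead1 went from −0.46 to 0.07 (95% interval −0.17 to 0.31, edgeR adjusted p = 0.685) and that of Lats1 from −0.48 to −0.12 (95% interval −0.36 to 0.13, edgeR adjusted p = 0.503). The same offset moved Yap1 to 0.21, Wwtr1 to 0.26, Lats2 to −0.19 and Amotl2 to −0.07, and moved Vgll4, the member with the shortest transcript (2198 bases), to −0.53. No member was called with the offset, where the lowest edgeR adjusted p was 0.286 with all libraries and 0.175 without NICD 1. NICD 1 also had the highest summed CPM of 14 acinar markers, 169700 against 50640 to 120800 in the other 7 libraries, and with the acinar score as a covariate 0 members were called. That covariate moved values away from 0, to −0.58 for Tead1 (edgeR adjusted p = 0.0971) and −0.62 for Lats1 (edgeR adjusted p = 0.0751). Tead2 went to −0.22 (edgeR adjusted p = 0.417).

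**Figure D2:**
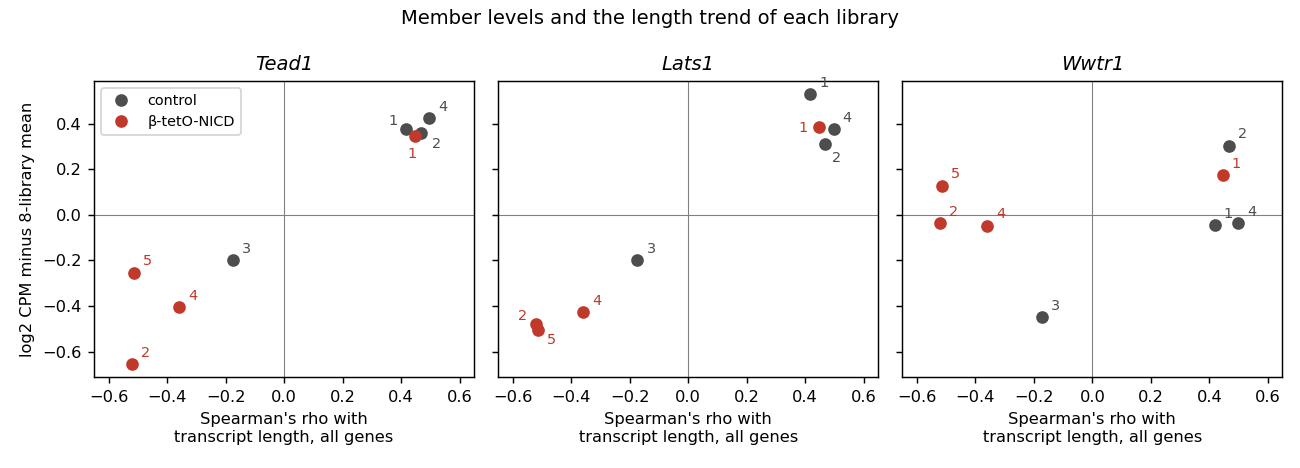
Log2 CPM of Tead1, Lats1 and Wwtr1 minus the mean of all 8 libraries (vertical axis) against Spearman's rho of each library with transcript length over all genes (horizontal axis); points are libraries, numbered, with controls in grey and NICD in red. Tead1 and Lats1 are above their mean in the 4 libraries with a positive rho and below it in the other 4, whereas Wwtr1 is not split this way.

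**Figure D3:**
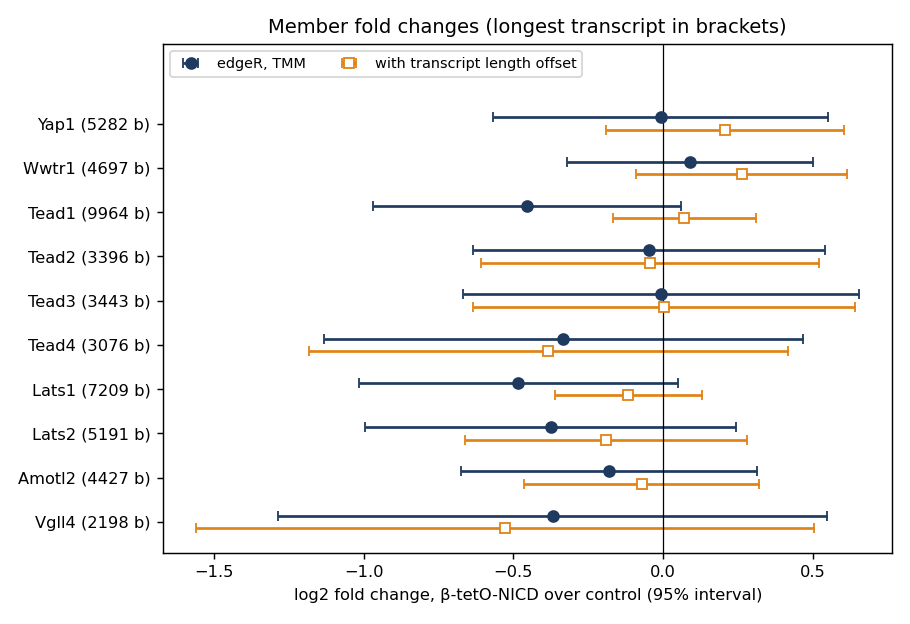
Log2 fold change of each member, NICD over control, with its 95% interval, from edgeR with TMM (filled circles) and with a transcript length offset (open squares); the longest transcript in bases follows each name. Every interval includes 0, and the offset moves Tead1 from −0.46 to 0.07.

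Levels of different members were compared as CPM per kilobase of the longest annotated transcript. In controls Vgll4 (10.8 ± 1.502) and Lats1 (10.4 ± 2.08) were highest, and differed by less than their SD (n = 4). Tead1 (5.06 ± 0.927) and Amotl2 (4.66 ± 0.445) came next, also within their SD of each other. Lats2 (2.42 ± 0.411), Wwtr1 (2.24 ± 0.468) and Tead2 (2.04 ± 0.347) followed without separation, then Yap1 (1.53 ± 0.350), and Tead3 (0.459 ± 0.107) and Tead4 (0.324 ± 0.129) were lowest. Per kilobase, Yap1 stood at 0.680 ± 0.0354 (SD, n = 4) of Wwtr1 in controls and 0.634 ± 0.149 (SD, n = 4) in NICD islets, ranges that overlapped. Lats1 stood at 4.30 ± 0.702 times Lats2 in controls and 4.17 ± 0.970 times in NICD islets (SD, n = 4), again with overlap. These orders depend on which transcript is expressed: with the median transcript length in place of the longest, an alternative chosen after seeing the data, the log2 ratio of Yap1 to Wwtr1 in controls went from −0.56 to 1.29.

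Tead1 was the main TEAD RNA of islets by this measure, and its share of the summed TEAD CPM per kilobase was the 1 quantity computed on the members in which the groups did not overlap. The share was 62.2%, 65.8%, 62.0% and 66.1% in controls 1 to 4 and 57.6%, 53.7%, 58.9% and 60.7% in NICD 1, 2, 4 and 5. All 4 NICD libraries were below all 4 controls. The means were 64.0% ± 2.20 and 57.8% ± 2.95 (SD, n = 4). The share was singled out after its values were seen and is given without a test, beside the 16.1% of single genes whose groups did not overlap. The groups were also apart when the share was taken without division by length (82.8% to 85.2% against 77.4% to 82.0%) and per kilobase of the median transcript (72.3% to 77.8% against 67.1% to 71.9%), but the nearest libraries differed by less than the SD within a group. None of these shares is corrected for the length trend of the libraries. With the length offset the log2 fold change of Tead1 was 0.07, beside −0.04 for Tead2, 0.0037 for Tead3 and −0.38 for Tead4, so that Tead1 was no longer lower than the other TEAD genes. Tead2 held 26.2% ± 3.89 and 30.7% ± 2.38, Tead3 5.79% ± 0.677 and 7.40% ± 1.82, and Tead4 4.01% ± 1.27 and 4.21% ± 0.861 (SD, n = 4), each with overlap.

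**Figure D4:**
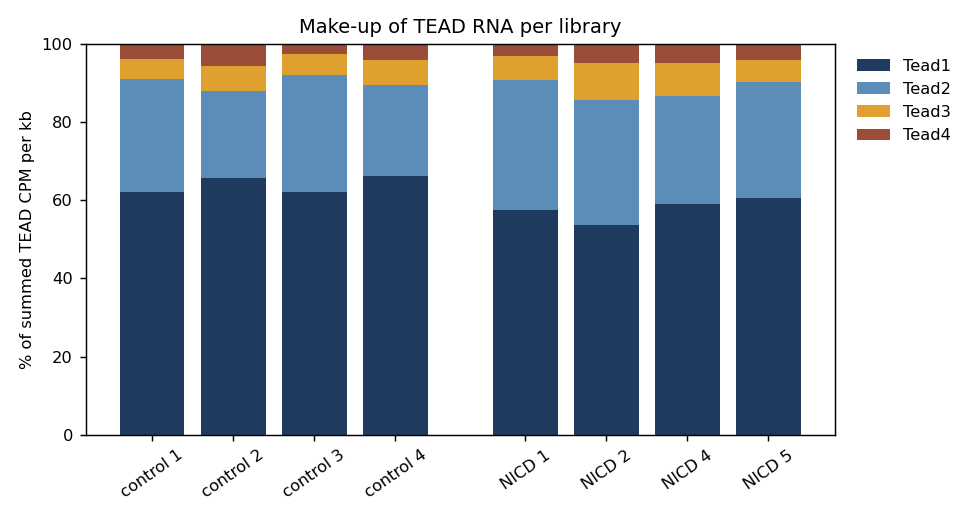
Share (%) of each TEAD gene in the summed TEAD CPM per kilobase of the longest transcript, one stacked bar per library from 0 to 100%. Tead1 makes up 62.0% to 66.1% in controls and 53.7% to 60.7% in NICD islets.

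Islets also hold mesenchymal and endothelial cells, in which YAP, TAZ and TEAD genes are known to be expressed, and in bulk RNA fewer cells of a type cannot be told apart from less RNA per cell. The summed CPM of 12 stellate and fibroblast markers was 277, 850, 253 and 422 in controls 1 to 4 and between 454 and 547 in NICD islets. All 12 were tested and 0 were called. Control 2 was highest and control 3 lowest in this sum. Among controls, control 3 was the lowest for all 10 members, and control 2 was the highest for Yap1, Wwtr1 and Tead4 but not for the other 7. The summed CPM of 10 endothelial markers was between 554 and 877 in controls, again lowest in control 3 and highest in control 2, and between 745 and 869 in NICD islets, with 0 called. With the stellate and fibroblast score as a covariate the log2 fold change of Wwtr1 went from 0.09 to −0.05, and 0 members were called with that score or with the endothelial, duct or acinar score. Over all genes, the same fits called 2.88%, 3.85%, 2.43% and 7.32%. The summed CPM of 12 duct markers was between 477 and 676 in controls and between 838 and 1387 in NICD islets, and 2 of the 11 tested, Clu and Ambp, rose, by 1.48 and 1.14 on the log2 scale (edgeR adjusted p = 0.00288 and 0.0168). The part of these cells in the members' levels was not tested beyond these fits.

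The other genes of the pathway were described from 3 lists. Of 25 core kinases, adaptors and upstream regulators, all tested, 1 rose and 0 fell, and their median log2 fold change was −0.22 with 18 below 0. Of 15 genes that bind YAP, TAZ or TEAD, 13 were tested, 1 rose and 0 fell (median −0.09). Of 20 genes known as YAP/TAZ-TEAD targets, 18 were tested, 2 rose and 1 fell (median 0.11). These counts stand beside the 4.19% of all genes called higher and 2.57% called lower. Without NICD 1, the calls were 1 higher and 7 lower among the core and upstream genes, 1 and 2 among the binding genes, and 2 and 3 among the targets, beside 33.1% of all genes called in either direction, and with the length offset as well they were 2 and 1, 2 and 2, and 2 and 0, beside 21% of all genes. Of the 5 genes called with all libraries, Wwc1 and Gadd45a were called with the stellate and fibroblast score as a covariate, Wwc1 alone with the duct score, and 0 in the 5 libraries without Eif2s3y. These fits called fewer genes of all kinds, 434, 367 and 116 in place of 1020, and the log2 fold changes of the 5 kept their sign, at 0.90 or more for Wwc1, Wtip, Fjx1 and Gadd45a and −0.94 or below for Dock5.

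Wwc1, which encodes KIBRA, an upstream activator of the LATS kinases, had 11.6, 9.88, 10.01 and 8.52 CPM in controls and 34.0, 30.1, 20.7 and 16.7 CPM in NICD islets. Every NICD library was above every control. Wwc1 rose by 1.34 on the log2 scale (SE 0.23, edgeR adjusted p = 0.0107), passed in all 8 fits that left out 1 library (1.17 to 1.498), and rose by 1.47 with the length offset (edgeR adjusted p = 0.00293). Other listed regulators with high counts were not called: Nf2, which encodes the scaffold Merlin, had a log2 fold change of −0.43 (edgeR adjusted p = 0.236), the kinase gene Taok2 −0.39 (edgeR adjusted p = 0.212), and the casein kinase gene Csnk1d 0.05 (edgeR adjusted p = 0.813).

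Wtip encodes an Ajuba family LIM protein, a family known to bind LATS kinases. It had 5.17, 6.55, 7.597 and 5.03 CPM in controls and 11.3, 14.8, 9.89 and 11.9 CPM in NICD islets. The groups did not overlap, and Wtip rose by 0.97 on the log2 scale (SE 0.20, edgeR adjusted p = 0.0232). Its call held in 4 of the 8 fits that left out 1 library, always with a rise (0.86 to 1.10), and with the length offset (0.71, edgeR adjusted p = 0.0347). Among the abundant genes of this list, Ywhaq and Ywhaz, which encode 14-3-3 proteins that retain phosphorylated YAP, had log2 fold changes of −0.18 (edgeR adjusted p = 0.360) and 0.11 (edgeR adjusted p = 0.654). Ywhaq was at −0.40 with the length offset (edgeR adjusted p = 0.0677) and was called with the offset and without NICD 1 (−0.44, edgeR adjusted p = 0.0431). The coactivator gene Wbp2 had 0.10 (edgeR adjusted p = 0.649).

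Among the targets, Fjx1, whose fly relative four-jointed is a Golgi kinase that modifies Fat and Dachsous cadherins, had 1.38, 1.65, 0.475 and 1.06 CPM in controls and 3.09, 3.36, 5.58 and 8.92 CPM in NICD islets. It rose by 2.20 on the log2 scale (SE 0.46, edgeR adjusted p = 0.0224), and its call held in 5 of the 8 fits that left out 1 library. Gadd45a, a growth arrest and DNA damage gene, had 8.12, 8.66, 15.0 and 8.61 CPM in controls and 16.9, 25.6, 25.4 and 38.2 CPM in NICD islets. It rose by 1.39 on the log2 scale (SE 0.28, edgeR adjusted p = 0.0206), and its call held in 3 of those 8 fits, with values between 1.16 and 1.65. Both rises had groups that did not overlap, and with the length offset the value of Gadd45a was 0.89 (edgeR adjusted p = 0.00685) and that of Fjx1 2.15 (edgeR adjusted p = 0.018).

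Dock5, an exchange factor gene for Rac, went the other way, with 20.3, 12.4, 13.7 and 17.2 CPM in controls and 11.5, 6.33, 6.41 and 7.10 CPM in NICD islets. It fell by 1.02 on the log2 scale (SE 0.25, edgeR adjusted p = 0.0395). Its longest transcript has 9988 bases, and the call was lost with the length offset (−0.51, edgeR adjusted p = 0.0993), with Eif2s3y (−1.07, edgeR adjusted p = 0.0544) or the endothelial score (−0.99, edgeR adjusted p = 0.0794) as a covariate, and in 7 of the 8 fits that left out 1 library, in which the log2 fold change was between −1.27 and −0.87 over all 8. The targets most used as readouts of YAP and TAZ did not pass the test: Ctgf had a log2 fold change of 0.22 (edgeR adjusted p = 0.521), Cyr61 −0.17 (edgeR adjusted p = 0.601) and Axl 0.01 (edgeR adjusted p = 0.962), and Ankrd1 was under the filter. The most abundant targets were not called either, with 0.02 for Igfbp3 (edgeR adjusted p = 0.951), −0.72 for Arhgef17 (edgeR adjusted p = 0.157) and −0.67 for Asap1 (edgeR adjusted p = 0.103, but 0.0497 with DESeq2). Without NICD 1, Arhgef17 (−1.005, edgeR adjusted p = 0.0291) and Asap1 (−0.92, edgeR adjusted p = 0.00883) were called, and with the length offset their values were −0.23 and −0.39, not called. With the length offset, 2 further listed genes rose, Tiam1 (0.73, edgeR adjusted p = 0.00996) and Amotl1 (0.46, edgeR adjusted p = 0.0439).

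**Figure D5:**
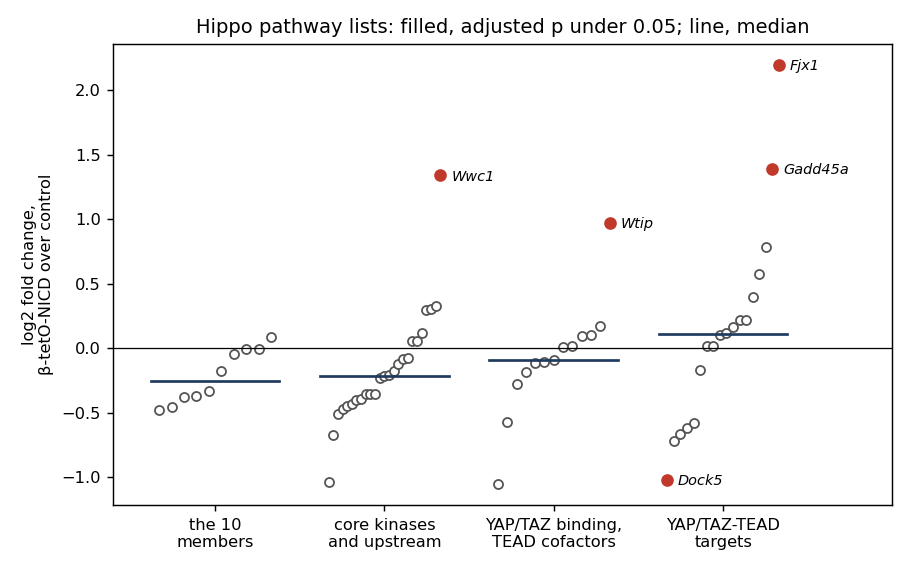
Log2 fold change, NICD over control, of the 10 members and of the tested genes of the 3 pathway lists, ordered by value within each list; filled points have an edgeR adjusted p under 0.05 and horizontal lines are medians. The members hold no filled point, and the lists hold Wwc1, Wtip, Fjx1 and Gadd45a above 0 and Dock5 below.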

How the data were processed

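The authors prepared stranded poly(A) libraries, pseudoaligned reads to the GRCm38 transcriptome with kallisto (version not given in the sources used here) and deposited whole-number counts per gene symbol, not normalized. The authors' table of their own limma comparison, with log2 fold changes and p-values, was not used. Columns were matched to mice by name; NICD columns 4 and 5 match the group but no single mouse, since those mice are labelled 1 to 4. Mice are separate by their labels, and no 2 libraries of a group agreed within sampling noise.

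The count analysis used edgeR 4.0.16 under R 4.3.3 (TMM, glmQLFit, glmQLFTest, no covariate). A gene entered the test when 4 or more of the 8 libraries had 10 or more counts, with Benjamini-Hochberg adjustment over all of them and a threshold of 0.05. The steps were run on simulated data that held no length trend, no deviant library and no shift of cell types. That run therefore does not test how the fits handle these. Lengths and coordinates are from GENCODE M21 and promoter sequences from RefSeq. Totals of 21701223 to 26413146 counts leave members of about 1 CPM with the least precise values. The members and lists were chosen with earlier results of these data known. Named genes are all members, Notch1 and Hes1, and from each list every gene called (up to 5) and up to 3 others with the highest mean CPM. Ctgf, Cyr61, Axl, Ankrd1, Tiam1, Amotl1, Clu and Ambp were added after their values were seen. Alternatives were other normalizations and filters, DESeq2 1.42.0, limma-voom (limma 3.58.1), the replicate block, a transcript length offset, marker scores or Eif2s3y as covariates, the libraries without Eif2s3y, exact permutation, and leaving out each library.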

Additional observations from a re-analysis of the deposited data

Results flagged for a closer look

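In groups of 4, a library was marked where its gap to the nearest other, divided by the range of the group, was above Dixon's critical value at 95%, which chance gives in about 1 of 20 groups. Among 70 groups examined 9 were marked, where 3.5 are given by chance. Among the members, NICD 1 was the highest of its group for Yap1 (0.855), Tead2 (0.863) and Lats1 (0.935), and control 3 was the lowest of its group for Tead1 (0.870). Among the listed genes, NICD 1 was the highest of its group for Dock5 (0.851), and control 3 was the highest of its group for Gadd45a (0.922). The same 2 libraries stood apart in the length trend, control 3 as the lowest rho of the controls (0.882) and NICD 1 as the highest of its group (0.833). Control 1 was the highest control in summed acinar marker CPM (0.873). The part of the length trend and of acinar RNA in these gaps was not tested.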

How the results depend on the processing

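The number of members called was 0 in every fit except the one without NICD 1, where Tead1 and Lats1 were called (0 to 2 over the fits leaving out each library). Of 250 alternative values of the members, 215 kept their direction and side of the threshold, 33 changed sign, none of them called, and 2 became called. The values that changed sign were 0.064 for Yap1, 0.024 for Tead2 and 0.068 for Tead3 with upper-quartile normalization, 0.019 for Yap1 and 0.020 for Tead3 with at least 10 counts in every library, and 0.0040 for Tead3 with limma-voom. They were 0.21 for Yap1, 0.071 for Tead1 and 0.0037 for Tead3 with the length offset, 0.025 for Yap1 and 0.0095 for Tead3 with Eif2s3y as covariate, and 0.26 for Yap1, 0.38 for Tead3 and 0.10 for Tead4 in the libraries without Eif2s3y. They were −0.048 for Wwtr1 with the stellate score, and −0.0071 for Wwtr1 and 0.067 for Tead3 with the duct score. With the length offset and without NICD 1, an alternative chosen after seeing the data, Yap1 was at 0.11 and Tead1 at 0.091. Leaving out each library in turn gave −0.24 to 0.12 for Yap1, −0.028 to 0.22 for Wwtr1, −0.35 to 0.081 for Tead2 and −0.16 to 0.13 for Tead3. The cause of these moves was not tested.

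The number of genes called, 1020, was 2739 with DESeq2, 1535 with the length offset, 116 in the libraries without Eif2s3y, 434, 580 and 367 with the stellate, endothelial or duct score (counts added after seeing the data), 3212 with the length offset and without NICD 1, and 373 to 5065 with each library left out. The number of listed genes called, 5, was 0 in the libraries without Eif2s3y, 2 with the stellate score, 1 with the duct score, 9 with the length offset and without NICD 1, and 1 to 16 with each library left out, highest without NICD 1. Among listed genes that were not called, the value changed sign for Wbp2 (−0.20 with the length offset, −0.26 with it and without NICD 1, −0.0018 in the libraries without Eif2s3y), for Igfbp3 (−0.16, −0.17 and −0.24 in the same fits, −0.071 with the duct score, −0.088 to 0.093 with each library left out) and for Csnk1d (−0.0040 with Eif2s3y as covariate). The alternatives of single listed genes and the median transcript length were chosen after seeing the data. With the median transcript length, the log2 ratio of Yap1 to Wwtr1 in controls was 1.29 in place of −0.56.

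With the replicate block, 970 genes, 0 members and 5 listed genes were called. Only numbers 1 and 2 are settled for both groups, and the deviations of same-numbered libraries correlated at 0.28 and −0.09, so the numbers were not taken to pair the mice.

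With 4 libraries a group, the 95% intervals of the members were between 0.82 and 1.83 wide from end to end on the log2 scale. Differences inside the interval of a member were not excluded. Exact permutation over the 70 arrangements cannot give a two-sided p under 0.0286, and the lowest of a member was 0.0571, for Tead1. Genes under about 1 CPM, such as Tead4, rest on few counts. Group and length trend were partly aligned, with a rho below 0 in 3 NICD libraries and 1 control.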
